A study of Homo sapiens with 54 samples.

Results

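A set of 10 transcription factors that build or hold the germinal centre B cell state was followed in lymphoma cells after a short exposure to IL-4. The set was BCL6, BCL11A, PAX5, BACH2, IRF8, SPIB, MEF2B, POU2AF1, EBF1, and IKZF1. It was chosen by name, with earlier results of these data known, and matched by Ensembl identifier. All 10 were found among the 31835 genes of the count table. In the comparison across time points 9 of them passed the filter on low counts, together with 9261 genes in all, and MEF2B did not. OCI-Ly1 is a B cell lymphoma line that carries the BCL2 translocation and a STAT6 variant of its own. It was made to express Flag-tagged STAT6 from the CMV promoter, either wild type (STAT6 WT) or with 1 of 3 substitutions in the DNA binding domain, D419G, D419N, or N421K (together STAT6 MUT). All cells received IL-4 at 10 ng/ml for 20 min, were washed, and gave RNA 2, 4, or 8 h later, with 9 STAT6 WT libraries and 3 of each mutant line at each time, 54 libraries in all. Every group thus kept the line's own STAT6, and libraries of cells without IL-4 or with an empty vector were not used here. The sources used here do not give how many independent transductions a line stands for, so p-values measure the spread between these libraries, which may be partly technical.

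In the germinal centre, B cells mutate their antibody genes and are selected by T cells that offer IL-4, which acts through STAT6. BCL6 is the master repressor of this reaction, PAX5, EBF1, and IKZF1 hold B cell identity, and BACH2, IRF8, SPIB, BCL11A, MEF2B, and the OCT coactivator POU2AF1 complete the program. Leaving the germinal centre as a plasma cell goes with loss of BCL6, PAX5, and BACH2 and gain of IRF4, BLIMP1 (PRDM1), and XBP1. BCL6 binds DNA letters that resemble STAT sites, and it is known to repress its own gene.

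The promoter of BCL6 was of interest because BCL6 was the member that rose. RefSeq promoter windows of 300 bases, 250 before to 50 after a gene's start (GRCh38.p14), were on hand for 9 of the 10 factors, 17 windows in all, and POU2AF1 was not searched. They were searched for the letters preferred by STAT6, TTC and GAA with 4 bases between them, and for the general STAT letters TTCNNNGAA, with 3 between, whose fixed ends read the same on both strands. In all 35116 promoters, 6.44% held the first and 7.66% the second. None of the 17 windows (0) held the form with 4 bases between. TTCNNNGAA was found in 2 windows, 4 times in the outer one of the 2 BCL6 windows and 1 time in 1 of the 5 BCL11A windows. Windows with 4 or more matches to TTCNNNGAA numbered 7, or 0.0199% of all promoters. This cutoff equals the count in the BCL6 window, the highest of the 17 searched, so the share is a description and not a test. The BCL6 window is chr3:187745419-187745718 on the minus strand, at the upstream one of its starts. Its matches, in capitals, begin 28 and 5 bases before the start and 10 and 36 bases after it, and no match overlaps another. The BCL11A window is chr2:60528486-60528785 on the minus strand, and its match begins 9 bases after that start. The sequences are shown 5′ to 3′ with capitals for TTCNNNGAA. A match is a run of letters and not a measured binding site.
BCL6: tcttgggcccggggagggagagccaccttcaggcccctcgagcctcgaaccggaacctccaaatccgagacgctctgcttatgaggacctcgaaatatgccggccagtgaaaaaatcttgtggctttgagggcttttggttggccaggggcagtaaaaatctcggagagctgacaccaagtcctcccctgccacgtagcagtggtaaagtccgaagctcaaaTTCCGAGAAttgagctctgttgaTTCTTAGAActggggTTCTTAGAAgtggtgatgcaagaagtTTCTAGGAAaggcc
BCL11A: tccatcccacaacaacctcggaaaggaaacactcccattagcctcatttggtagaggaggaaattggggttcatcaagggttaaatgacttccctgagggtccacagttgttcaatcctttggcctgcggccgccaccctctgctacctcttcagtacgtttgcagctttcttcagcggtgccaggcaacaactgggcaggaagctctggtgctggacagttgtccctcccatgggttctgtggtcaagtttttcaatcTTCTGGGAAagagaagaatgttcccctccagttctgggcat

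The libraries held 161518 to 2978715 unique molecular identifiers (UMIs, one per captured RNA molecule), with a median of 885258.5, and 8 of the 54 fell under 0.5 of that median, 6 of them STAT6 MUT. Levels are given as CPM, the share of a library's UMIs on tested genes that fell on the gene, scaled to a fixed total and by TMM. Each count comes from the 3′ end of an RNA, so levels are compared between libraries and not between genes. All 10 markers of B cells and germinal centre B cells were detected, and their summed level ran from 2617 to 3472 CPM in STAT6 WT and from 2183 to 3452 CPM in STAT6 MUT. Across time points 5 of these 10 were lower and 1 was higher in STAT6 MUT, against 6.62% and 6.74% of all genes tested. The part of this shift in the results below was not tested. T cell markers summed to 2.56 to 30.0 CPM and myeloid markers to 0 to 2.56 CPM over all libraries. In such bulk samples fewer cells of a kind and less RNA per cell cannot be told apart. STAT6 itself ran from 134 to 228 CPM in STAT6 WT and from 111 to 212 CPM in STAT6 MUT, and these counts do not separate the introduced from the line's own transcript.

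Across time points, BCL6 rose in STAT6 MUT cells, while BCL11A, SPIB, IRF8, and BACH2 fell. PAX5, POU2AF1, EBF1, and IKZF1 did not pass the test, with log2 fold changes from -0.09 to 0.11. Calls were made by the quasi-likelihood test of edgeR at an adjusted p under 0.05, with p-values adjusted by Benjamini-Hochberg over every gene in the fit. This called 5 of 9 tested factors, 1 higher and 4 lower, against 13.4% of all genes tested, 6.74% higher and 6.62% lower. Because the set was chosen with earlier results of these data known, such shares describe the counts and do not test the set. The median log2 fold change was -0.09 over the 9 factors and 0.0012 over all genes tested.

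BCL6, the repressor that defines the germinal centre state, was the only factor called higher across time points. At 2 h its level ran from 577 to 709 CPM in STAT6 WT (median 661), and the mutant libraries stood at 868, 1010, and 1030 CPM (D419G), 676, 698, and 709 CPM (D419N), and 741, 768, and 853 CPM (N421K). The D419G and N421K libraries all lay above every STAT6 WT library (2.24% and 3% of tested genes showed this in the line), and the D419N libraries lay inside the STAT6 WT range. At 4 h STAT6 WT ran from 395 to 485 CPM (median 444), and the mutant libraries stood at 704, 746, and 750 CPM (D419G), 598, 617, and 669 CPM (D419N), and 549, 610, and 640 CPM (N421K). The 9 mutant libraries were all above the 9 STAT6 WT libraries at this time, which 0.267% of tested genes showed in this direction. At 8 h STAT6 WT ran from 309 to 444 CPM (median 338), and the mutant libraries stood at 434, 486, and 497 CPM (D419G), 375, 394, and 432 CPM (D419N), and 305, 377, and 412 CPM (N421K). The groups overlapped again, with 2 mutant libraries, both D419G, above every STAT6 WT library and 1, N421K, below. The highest STAT6 WT library, at 444 CPM, rested on 158 UMIs, and the next one stood at 346 CPM. The lowest N421K library, at 305 CPM, rested on 61 UMIs.

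BCL6 was 1.32-fold higher across time points, a log2 fold change of 0.40 ± 0.04 (SE; edgeR adjusted p = 1.47e-12, rank 27 by p among 9261 genes). Its log2 fold change was 0.34 ± 0.06 at 2 h (edgeR adjusted p = 0.000122), 0.56 ± 0.06 at 4 h (4.43e-09, rank 9 of 8605), and 0.29 ± 0.07 at 8 h (0.0181). Leaving out a replicate number means leaving out all libraries of that number, which for 4 to 9 are STAT6 WT only. Calls of any factor lost with the replicate number as a block in the model are given only in the last section. The BCL6 difference at 8 h did not pass without the D419G line (0.19, adjusted p = 0.264), without replicate number 3 (0.27, adjusted p = 0.173), or without replicate number 6 (0.27, adjusted p = 0.0574). A change of the genotype difference over time was not called for BCL6 (interaction, edgeR adjusted p = 0.269). An annotated antisense RNA, ENSG00000228804, covers the 3′ end of BCL6, and the use of strand in counting is not given in the sources used here.

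**Figure D1:**
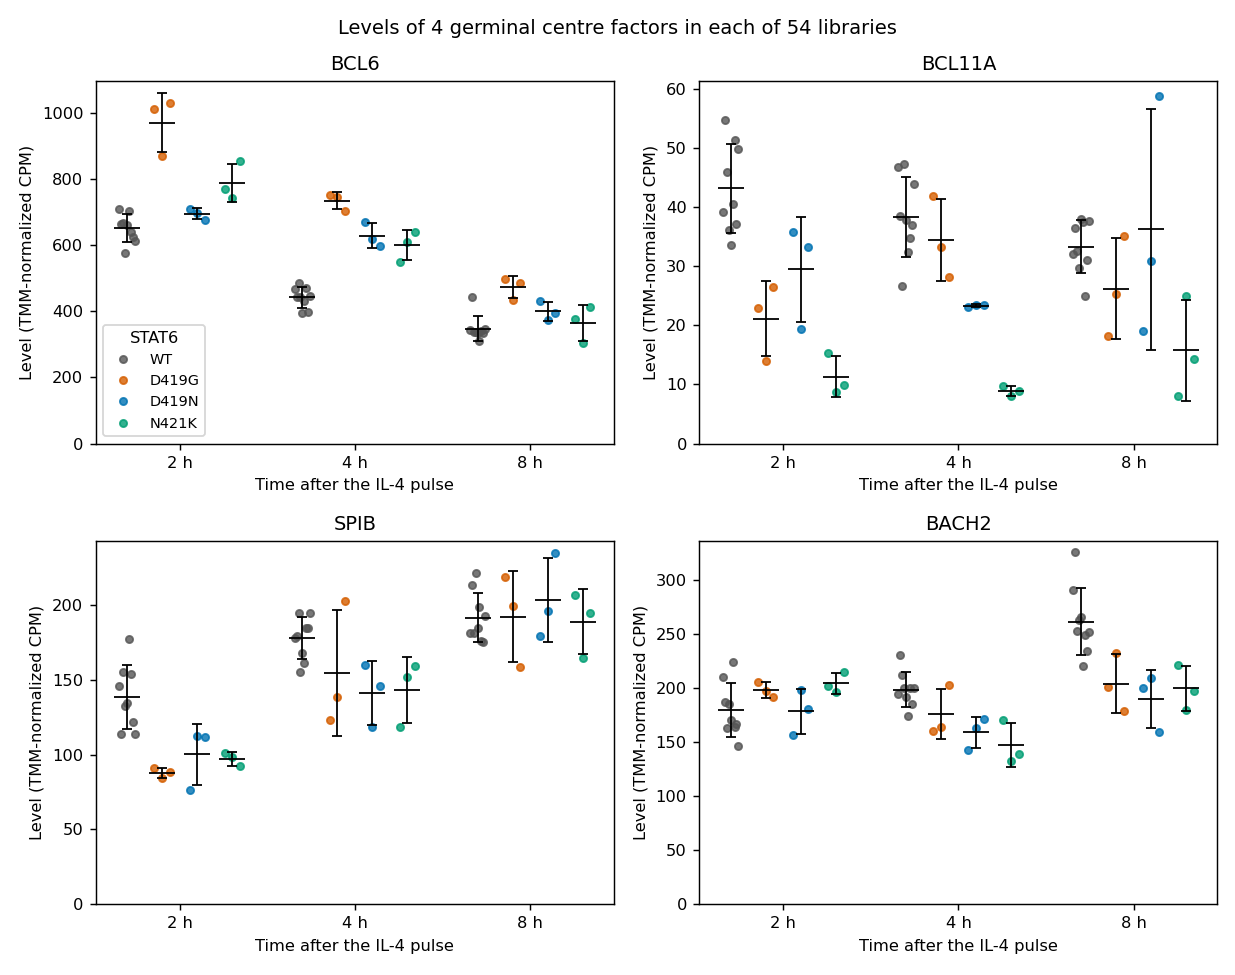
Levels of BCL6, BCL11A, SPIB, and BACH2 in TMM-normalized CPM (y axis, from 0) at 2, 4, and 8 h after the IL-4 pulse (x axis). Each point is 1 library, colored by STAT6 line, and black bars are the mean ± SD of 9 STAT6 WT or 3 mutant libraries; BCL6 in all 9 mutant libraries lies above STAT6 WT at 4 h, SPIB in all 9 lies below it at 2 h, and BCL11A is lowest in N421K.

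BCL11A, a zinc finger repressor needed for B cell development, was the member with the largest fold change, and it was also the most thinly counted of the tested members. It had 4 to 143 UMIs per library. Its biological coefficient of variation across time points was 22.3%, at the 99.5 percentile of tested genes, against a median of 7.81%. That model pooled the mutant lines, so differences between them entered this value. In STAT6 WT the SD was 17.5%, 17.7%, and 13.3% of the mean at 2, 4, and 8 h. Counting noise alone gives 17.6%, 17.2%, and 18.9%. Within a mutant line the SD ran from 1.14% (D419N at 4 h, 21.5% by counting noise) to 56.3% (D419N at 8 h, 29.5%). At 2 h STAT6 WT ran from 33.6 to 54.8 CPM (median 40.5), D419G stood at 14.1, 22.9, and 26.5 CPM, D419N at 19.4, 33.3, and 35.8 CPM, and N421K at 8.78, 9.85, and 15.3 CPM. In all, 8 of 9 mutant libraries were below every STAT6 WT library. At 4 h STAT6 WT ran from 26.7 to 47.3 CPM (median 37.8), D419G stood at 28.2, 33.3, and 41.8 CPM, D419N at 23.0, 23.5, and 23.5 CPM, and N421K at 8.00, 8.97, and 9.73 CPM. The D419G libraries lay within the STAT6 WT range at this time. At 8 h STAT6 WT ran from 25.0 to 38.1 CPM (median 32.6), D419G stood at 18.1, 25.4, and 35.2 CPM, D419N at 19.1, 30.9, and 58.8 CPM, and N421K at 8.07, 14.2, and 25.0 CPM. The D419N library at 58.8 CPM rested on 10 UMIs and the N421K library at 25.0 CPM on 5 UMIs.

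The N421K libraries lay below every STAT6 WT library of their time in 9 of 9 cases, as 3.41%, 2.69%, and 1.95% of tested genes did at 2, 4, and 8 h, though at 8 h the highest N421K value and the lowest STAT6 WT value were both 25.0 CPM. Across time points BCL11A was lower in STAT6 MUT by a log2 fold change of -0.91 ± 0.12 (edgeR adjusted p = 3.21e-09), and this was -0.49 without the N421K line (adjusted p = 0.000164). At single times its log2 fold change was -1.08 ± 0.16 at 2 h (edgeR adjusted p = 3.38e-06), -0.91 ± 0.19 at 4 h (0.00207), and -0.70 ± 0.18 at 8 h (0.0373). Without the N421K line the 4 h and 8 h values were -0.43 (adjusted p = 0.259) and -0.33 (adjusted p = 0.374). Leaving out replicate number 1 moved the 8 h value of BCL11A to -0.39 (adjusted p = 0.267), and it also missed the threshold without number 5, 6, 8, or 9 (-0.68, -0.67, -0.72, and -0.67) and with DESeq2 (-0.59, adjusted p = 0.237).

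SPIB, an ETS factor that works with IRF partners and POU2AF1 in mature B cells, was lower in the mutant lines at 2 and 4 h and was not called at 8 h. At 2 h STAT6 WT ran from 114 to 177 CPM (median 134), and the mutant libraries stood at 84.3, 88.2, and 91.0 CPM (D419G), 76.5, 112, and 112 CPM (D419N), and 92.1, 98.5, and 101 CPM (N421K). The 9 mutant libraries were all below the 9 STAT6 WT libraries, which 0.37% of tested genes showed in this direction. The highest mutant value, 112.4 CPM, and the lowest STAT6 WT value, 113.6 CPM, were close. At 4 h the range was 156 to 195 CPM in STAT6 WT (median 180) and 118 to 203 CPM in STAT6 MUT (median 146), and at 8 h it was 176 to 221 CPM (median 185) and 159 to 235 CPM (median 196). The groups overlapped at both later times.

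The log2 fold change of SPIB was -0.50 ± 0.08 at 2 h (edgeR adjusted p = 2.86e-05), -0.33 ± 0.08 at 4 h (0.00794), and 0.05 ± 0.07 at 8 h (0.847). The genotype difference changed over time (interaction, edgeR adjusted p = 0.00396), a call that was lost without replicate number 1 (0.154). The 4 h value was not called without number 1 (-0.27, adjusted p = 0.124), number 2 (-0.29, adjusted p = 0.108), or the N421K line (-0.33, adjusted p = 0.0661). Across time points SPIB was lower by a log2 fold change of -0.24 ± 0.05 (edgeR adjusted p = 0.000324).

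BACH2, the repressor that delays plasma cell differentiation, was not called at 2 h and was lower in STAT6 MUT at 4 and 8 h. At 2 h STAT6 WT ran from 146 to 224 CPM (median 170) and STAT6 MUT from 156 to 215 CPM (median 197). At 4 h STAT6 WT ran from 174 to 230 CPM (median 200), and the mutant libraries stood at 160, 164, and 203 CPM (D419G), 143, 162, and 171 CPM (D419N), and 132, 138, and 170 CPM (N421K). Here 8 of the 9 were below every STAT6 WT library. At 8 h STAT6 WT ran from 220 to 326 CPM (median 253), and the mutant libraries stood at 179, 201, and 232 CPM (D419G), 159, 200, and 209 CPM (D419N), and 180, 197, and 221 CPM (N421K). In this group 7 of 9 lay below the lowest STAT6 WT library.

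The log2 fold change of BACH2 was 0.13 ± 0.07 at 2 h (edgeR adjusted p = 0.288), -0.33 ± 0.07 at 4 h (0.00275), and -0.33 ± 0.07 at 8 h (0.00682), and the difference changed over time (interaction, edgeR adjusted p = 0.00217). The interaction was not called without replicate number 3 (0.109), the 8 h difference without number 3 (-0.28, adjusted p = 0.164), and the 4 h difference without number 2 (-0.28, adjusted p = 0.0729) or the N421K line (-0.28, adjusted p = 0.0966). Across time points the log2 fold change was -0.18 ± 0.05 (edgeR adjusted p = 0.0066), and this call was lost without replicate number 1 (-0.15, adjusted p = 0.0742) or the D419N line (-0.14, adjusted p = 0.0584).

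IRF8, an interferon regulatory factor that sustains germinal centre B cells, was lower across time points by a log2 fold change of -0.18 ± 0.04 (edgeR adjusted p = 0.000111). Its level was 238 ± 15.8, 241 ± 22.9, and 263 ± 22.9 CPM (SD, n = 9) in STAT6 WT at 2, 4, and 8 h and 210 ± 20.4, 209 ± 29.5, and 229 ± 16.9 CPM (SD, n = 9) in STAT6 MUT. The groups overlapped at each time, with 6, 3, and 3 of 9 mutant libraries below every STAT6 WT library. The difference of -0.16 to -0.20 did not pass at any single time (edgeR adjusted p = 0.0525, 0.246, and 0.106). Under the alternative settings it was called in 7 of 20 at 2 h and in 0 of 20 at 4 and 8 h. POU2AF1, the coactivator that OCT factors use at immunoglobulin genes, was at 577 ± 40.3 CPM in STAT6 WT and 574 ± 70.2 CPM in STAT6 MUT (SD, n = 27), with a log2 fold change of -0.016 ± 0.032 (edgeR adjusted p = 0.816).

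Of the factors that hold B cell identity, PAX5 was at 367 ± 25.3 CPM in STAT6 WT and 341 ± 42.7 CPM in STAT6 MUT (SD, n = 27). Its log2 fold change was -0.09 ± 0.04 across time points (edgeR adjusted p = 0.0693). Among single times it passed at 2 h only, with -0.20 ± 0.06 (edgeR adjusted p = 0.0209), where 6 of 9 mutant libraries were below every STAT6 WT library. This call of PAX5 was lost without replicate number 3 (-0.17, adjusted p = 0.143), the D419G line (-0.17, adjusted p = 0.0887), or the N421K line (-0.21, adjusted p = 0.081), and with no filter on low counts (-0.20, adjusted p = 0.0574). EBF1, the pioneer factor of the early B lineage, was at 99.6 ± 15.0 and 98.3 ± 13.6 CPM (log2 fold change 0.03 ± 0.05, edgeR adjusted p = 0.74). IKZF1 (IKAROS), a zinc finger regulator of lymphoid fate, was at 113 ± 16.4 and 121 ± 21.0 CPM (0.11 ± 0.04, edgeR adjusted p = 0.104).

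MEF2B, a BCL6 activator that is recurrently mutated in germinal centre lymphoma, was counted in 3 libraries with 1 UMI each and was not tested. Its annotated span on chromosome 19 lies under the readthrough gene BORCS8-MEF2B (1 UMI) and overlaps BORCS8 (1946 UMIs), so these counts do not show whether MEF2B is expressed.

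The number of factors called at each time was 4 of 9 at 2 h (BCL6, BCL11A, PAX5, and SPIB), 4 at 4 h (BCL6, BCL11A, BACH2, and SPIB), and 3 at 8 h (BCL6, BCL11A, and BACH2), against 8.59%, 3.97%, and 1.44% of all genes tested. BCL6 was the 1 called higher at each time, against 3.92%, 1.96%, and 0.852% of genes. The 3, 3, and 2 factors called lower stood against 4.67%, 2.01%, and 0.591% of genes. The interaction of genotype and time called 2 of 9 factors, SPIB and BACH2, against 0.957% of genes. Plate rows followed the time points, so time and plate row cannot be told apart in any comparison between times.

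**Figure D2:**
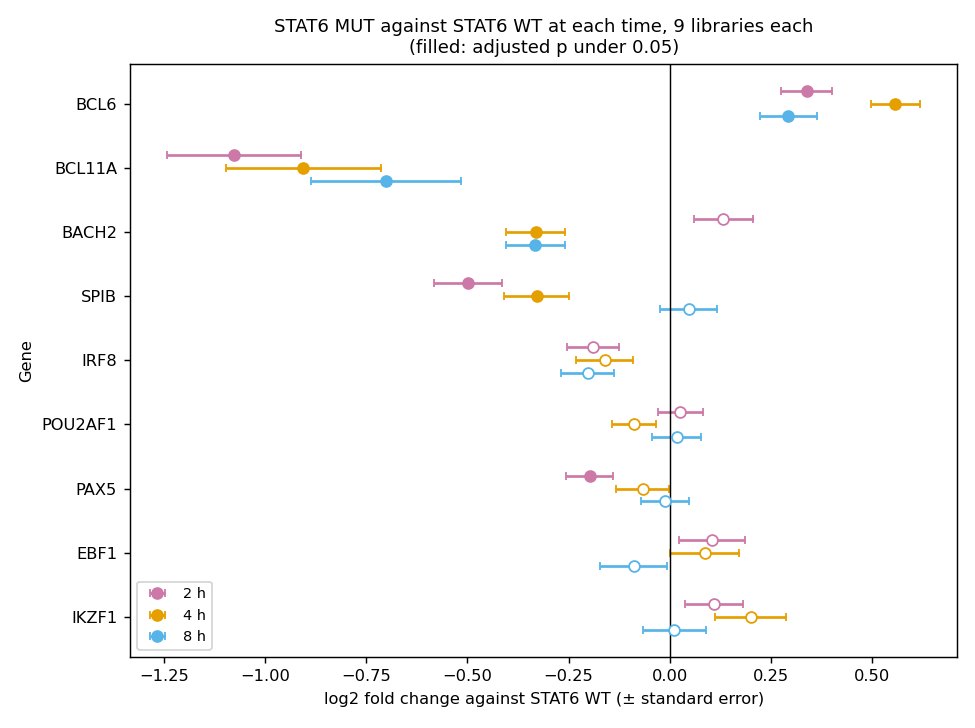
Log2 fold change of STAT6 MUT against STAT6 WT (x axis, ± SE) for the 9 tested factors (y axis) at 2, 4, and 8 h, with 9 libraries per genotype at each time and filled points for an adjusted p under 0.05. BCL6 is to the right and BCL11A to the left of 0 at each time, SPIB moves from -0.50 at 2 h to 0.05 at 8 h, and BACH2 from 0.13 to -0.33.

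Each mutant line was then compared with STAT6 WT in 1 model of line and time point. These 3 comparisons share the 27 STAT6 WT libraries. BCL6 was higher in each line, by a log2 fold change of 0.60 ± 0.05 in D419G (edgeR adjusted p = 4.79e-17, rank 3 of 9706), 0.29 ± 0.05 in D419N (5.28e-05), and 0.30 ± 0.05 in N421K (1.19e-06). BCL11A was lower in each, by -0.49 ± 0.13 in D419G (edgeR adjusted p = 0.00849), -0.48 ± 0.12 in D419N (0.0135), and -1.86 ± 0.14 in N421K (3.1e-20), the last a level 0.276-fold that of STAT6 WT. The BCL11A call in D419G was lost without D419G replicate 1 or 2 (adjusted p = 0.102 and 0.0542), and that in D419N without D419N replicate 1 or 2 (adjusted p = 0.147 and 0.0927). Beside these, IRF8 and PAX5 were called in D419G, BACH2 and SPIB in D419N, and IRF8 and SPIB in N421K, so that 4 of 9 factors were called in each line, against 5.38%, 2.75%, and 13.7% of all genes tested.

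The smaller changes of SPIB, IRF8, and BACH2 had one direction in the 3 lines. SPIB was at -0.24 ± 0.08 in D419G (edgeR adjusted p = 0.0541), -0.26 ± 0.08 in D419N (0.0477), and -0.22 ± 0.07 in N421K (0.0198), IRF8 at -0.29 ± 0.05 (0.000135), -0.12 ± 0.05 (0.274), and -0.16 ± 0.05 (0.0191), and BACH2 at -0.13 ± 0.07 (0.333), -0.25 ± 0.07 (0.0351), and -0.15 ± 0.06 (0.101). PAX5 was at -0.18 ± 0.05 in D419G (edgeR adjusted p = 0.0157), a call lost without D419G replicate 2 (-0.16, adjusted p = 0.139) or 3 (-0.18, adjusted p = 0.0514) and without the 8 shallow libraries (-0.14, adjusted p = 0.15). In D419N and N421K PAX5 was at -0.03 ± 0.05 (edgeR adjusted p = 0.876) and -0.07 ± 0.05 (0.368). The D419N value changed sign in 2 of 11 alternatives. In N421K the calls of SPIB and IRF8 were lost when any 1 of the 3 N421K replicates was left out, with adjusted p from 0.0528 to 0.0927 for SPIB and from 0.0576 to 0.0868 for IRF8, and that of IRF8 also with no filter on low counts (-0.17, adjusted p = 0.0728). In D419N the call of SPIB was lost without D419N replicate 1 or 2 (adjusted p = 0.341 and 0.189) and with scaling by total counts alone (0.0501), and that of BACH2 without D419N replicate 1, 2, or 3 (adjusted p = 0.38, 0.0607, and 0.0738), without the 8 shallow libraries (0.0682), and with limma-voom (0.0594).

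A joint test among the 3 mutant lines called BCL6 (edgeR adjusted p = 0.000175) and BCL11A (2.56e-09), 2 of 9 factors against 2.39% of all genes tested. BCL6 was 1.24-fold higher in D419G than in D419N, which differ from each other in the residue put at the same position (log2 fold change 0.31 ± 0.06, edgeR adjusted p = 0.00906, rank 3 of 9706, where 0.196% of genes were called). This call was lost without D419G replicate 1 (0.28, adjusted p = 0.0984), D419G replicate 3 (0.30, adjusted p = 0.0613), or D419N replicate 3 (0.28, adjusted p = 0.0778). BCL6 was lower in N421K than in D419G by -0.30 ± 0.06 (edgeR adjusted p = 0.000841, with 1.32% of genes called), and this missed the threshold without N421K replicate 1 (-0.26, adjusted p = 0.0539). Between N421K and D419N the difference of BCL6 was 0.0098 ± 0.061 (edgeR adjusted p = 0.974, with 1.88% of genes called). BCL11A was lower in N421K than in D419G by -1.36 ± 0.19 (edgeR adjusted p = 1.39e-07) and than in D419N by -1.38 ± 0.19 (5.27e-08), while D419G and D419N differed by -0.014 ± 0.17 (0.994). The other 7 tested factors were not called between the lines. Each substitution was carried by its own transduced line, so substitution and line cannot be told apart in these differences.

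**Figure D3:**
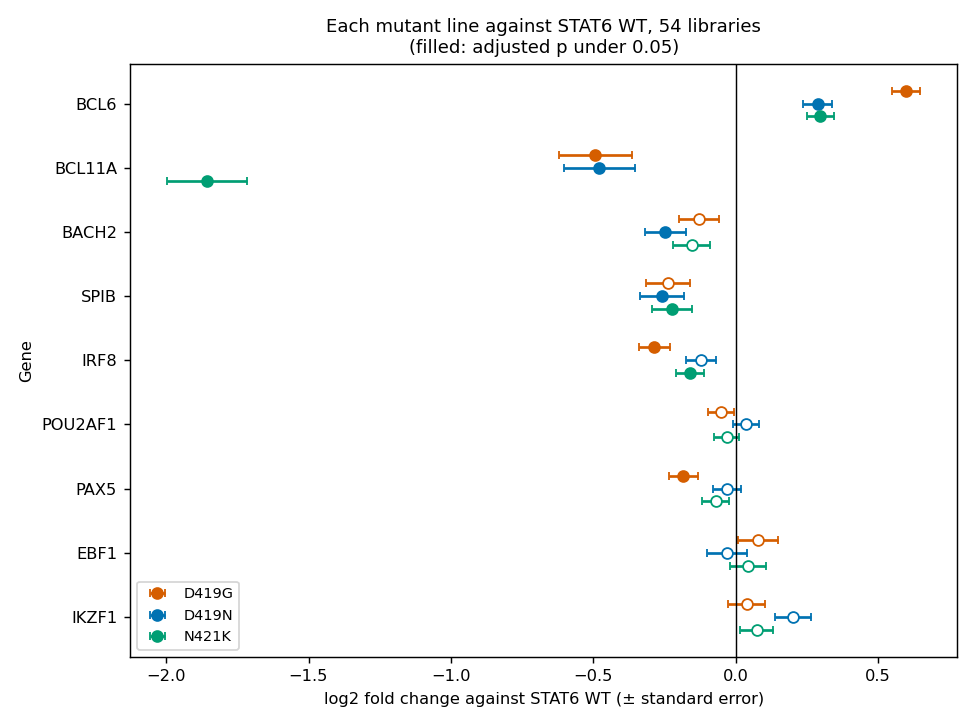
Log2 fold change of each mutant line against STAT6 WT across time points (x axis, ± SE) for the 9 tested factors (y axis), with 9 libraries per mutant line and 27 of STAT6 WT and filled points for an adjusted p under 0.05. D419G stands apart for BCL6 at 0.60 and N421K for BCL11A at -1.86.

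BCL6 fell with time in both genotypes. In STAT6 WT its mean went from 651 ± 42.5 CPM at 2 h to 442 ± 31.5 CPM at 4 h and 347 ± 37.8 CPM at 8 h, and in STAT6 MUT from 817 ± 133 to 654 ± 68.9 and 412 ± 59.1 CPM (SD, n = 9). The mean of STAT6 MUT at 4 h was thus near that of STAT6 WT at 2 h. From 2 to 4 h the log2 fold change was -0.55 ± 0.05 in STAT6 WT (edgeR adjusted p = 8.81e-13) and -0.31 ± 0.06 in STAT6 MUT (0.00012). From 4 to 8 h it was -0.36 ± 0.05 in STAT6 WT (edgeR adjusted p = 5.2e-06) and -0.65 ± 0.06 in STAT6 MUT (5.58e-11, the smallest p of 9370 genes).

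SPIB rose from 2 to 4 h in STAT6 WT (0.43 ± 0.07, edgeR adjusted p = 7.65e-06) and was not called from 4 to 8 h (0.09 ± 0.07, 0.464). In STAT6 MUT it rose at both steps (0.60 ± 0.09, edgeR adjusted p = 1.1e-06, and 0.48 ± 0.08, 7.8e-05), from a mean of 95.1 to 147 and 195 CPM. BACH2 went from 179 to 198 and 261 CPM in STAT6 WT, called from 4 to 8 h (0.37 ± 0.07, edgeR adjusted p = 0.000137). In STAT6 MUT it fell from 193 to 160 CPM by 4 h (-0.28 ± 0.07, edgeR adjusted p = 0.00854), a call lost without replicate number 2 (adjusted p = 0.0775) or 3 (0.0928), and rose to 198 CPM by 8 h (0.36 ± 0.08, 0.000761), a call lost without number 2 (0.0546). IKZF1 fell from 2 to 4 h in STAT6 WT (-0.43 ± 0.07, edgeR adjusted p = 7.3e-06) and in STAT6 MUT (-0.34 ± 0.08, 0.00253) and rose from 4 to 8 h in STAT6 WT (0.27 ± 0.07, 0.0141). That rise of IKZF1 was lost without STAT6 WT replicate 1 (adjusted p = 0.0515) or 6 (0.057).

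POU2AF1 rose from 4 to 8 h in STAT6 WT (0.16 ± 0.05, edgeR adjusted p = 0.0297) and in STAT6 MUT (0.27 ± 0.06, 0.00217), and fell from 2 to 4 h in STAT6 MUT (-0.21 ± 0.06, 0.0191). EBF1 rose from 4 to 8 h in STAT6 WT (0.24 ± 0.08, edgeR adjusted p = 0.0425). The STAT6 WT call of POU2AF1 was lost without number 1, 2, 4, 5, 6, 7, or 9 (adjusted p from 0.0524 to 0.09), and that of EBF1 without number 1, 2, 4, 7, or 9 (0.072 to 0.171). In STAT6 MUT the fall of POU2AF1 was lost without number 1, 2, or 3 (adjusted p = 0.0679, 0.195, and 0.0759), and its rise without number 2 (0.0731). In STAT6 WT 3 of 9 factors were called from 2 to 4 h (13% of all genes tested) and 5 from 4 to 8 h (5.88%). In STAT6 MUT 5 were called from 2 to 4 h (8.43%) and 4 from 4 to 8 h (11.9%). BCL11A, PAX5, and IRF8 were called at neither step in either genotype.

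Over the 12 groups of line and time the SD of the mean log2 CPM was largest for BCL11A (0.65), BCL6 (0.47), and SPIB (0.41), with a median of 0.21 over tested genes. The genes whose 12 group means were nearest to those of BCL11A were CD48 (root mean square difference 0.229 on the log2 scale), PAG1 (0.277), and CYB5A (0.322), against a median of 0.664 over 9260 genes. Those nearest to BCL6 were PCED1B (0.167), BNIP3P1 (0.168), and FAM162A (0.176; median 0.489), and those nearest to SPIB were CCDC107 (0.104), DPH7 (0.121), and TICAM1 (0.124; median 0.446). PCED1B, CD48, and TICAM1 had a median of 15 to 18 UMIs per library, and BNIP3P1 is a pseudogene whose reads may come from a near copy.

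The genes around the factors were described from lists, which were also chosen with earlier results of these data known. Of 17 genes known to be repressed by BCL6, 9 were tested across time points, and 3 were higher and 0 lower in STAT6 MUT, against 6.74% and 6.62% of all genes tested. They were IRF4, a plasma cell regulator (log2 fold change 0.87 ± 0.14, edgeR adjusted p = 1.07e-06), ID2, an inhibitor of E proteins (0.34 ± 0.05, 1.08e-06), and CDKN1B, a cell cycle inhibitor (0.33 ± 0.11, 0.0248). The list's median was 0.07. BCL6 and 3 genes it is known to repress were thus higher in the same comparison. At 2, 4, and 8 h 10, 8, and 7 genes of this list were tested, and 1 was higher and 0 lower at each time. Of all genes tested, 3.92%, 1.96%, and 0.852% were called higher at these times. The paper also names IRF4 as a known STAT6 target and reports it as upregulated in STAT6 MUT cells. Of the plasma cell regulators, XBP1 was higher as well (0.64 ± 0.06, edgeR adjusted p = 2.75e-13), and PRDM1 was not tested.

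Of 15 B lineage genes known to be activated by PAX5 or EBF1, 14 were tested, with a median log2 fold change of -0.23. Of these, 8 were lower and 0 higher, against 6.62% and 6.74% of all genes tested. The largest falls were in TNFRSF13C, the BAFF receptor (-0.36 ± 0.07, edgeR adjusted p = 1.69e-05), CD72, an inhibitory coreceptor (-0.35 ± 0.07, 0.000219), and BLK, a Src family kinase (-0.34 ± 0.09, 0.00332). At 2, 4, and 8 h 7, 8, and 1 of these 14 were lower, against 4.67%, 2.01%, and 0.591% of all genes tested. At each of these times 0 were higher. By line, 6, 4, and 8 were lower and 0, 0, and 2 higher in D419G, D419N, and N421K. Of all genes tested, 5.38%, 2.75%, and 13.7% were called in these lines. PAX5 and EBF1 themselves were not called across time points, with the values above. CD22 (-0.33 ± 0.04, edgeR adjusted p = 1.19e-11) is on this list and among the B cell markers, which also held falls of S1PR2 (-0.50 ± 0.06, 2.16e-10) and CD38 (-0.39 ± 0.12, 0.0221) and a rise of MME, the CD10 antigen of germinal centre B cells (0.28 ± 0.04, 8.53e-07). The median over the 10 markers was -0.19. Of 5 plasma cell markers 3 were tested and MZB1, an antibody folding factor, was lower (-0.14 ± 0.04, edgeR adjusted p = 0.0199).

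Among partners and paralogues of the factors, 10 of 19 were tested and 2 were lower, POU2F2 (OCT2), the DNA binding partner of POU2AF1 (-0.47 ± 0.05, edgeR adjusted p = 5.13e-13), and MEF2D, a relative of MEF2B (-0.37 ± 0.09, 0.00252). The median of the 10 was 0.08. Of 20 BCL6 corepressors and linked chromatin regulators 15 were tested, and TBL1XR1 was higher (0.22 ± 0.04, edgeR adjusted p = 6.87e-06) and HDAC7 lower (-0.17 ± 0.05, 0.0256), with a median of 0.018. Of 11 other transcription factors of germinal centre B cells 10 were tested, and FOXP1 (0.13 ± 0.04, edgeR adjusted p = 0.00417) and YY1 (0.13 ± 0.04, 0.0106) were higher, with a median of 0.04. Of all genes tested in this comparison 13.4% were called, 6.74% higher and 6.62% lower. The 2 of 15 corepressors and chromatin regulators called were near that share.

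**Figure D4:**
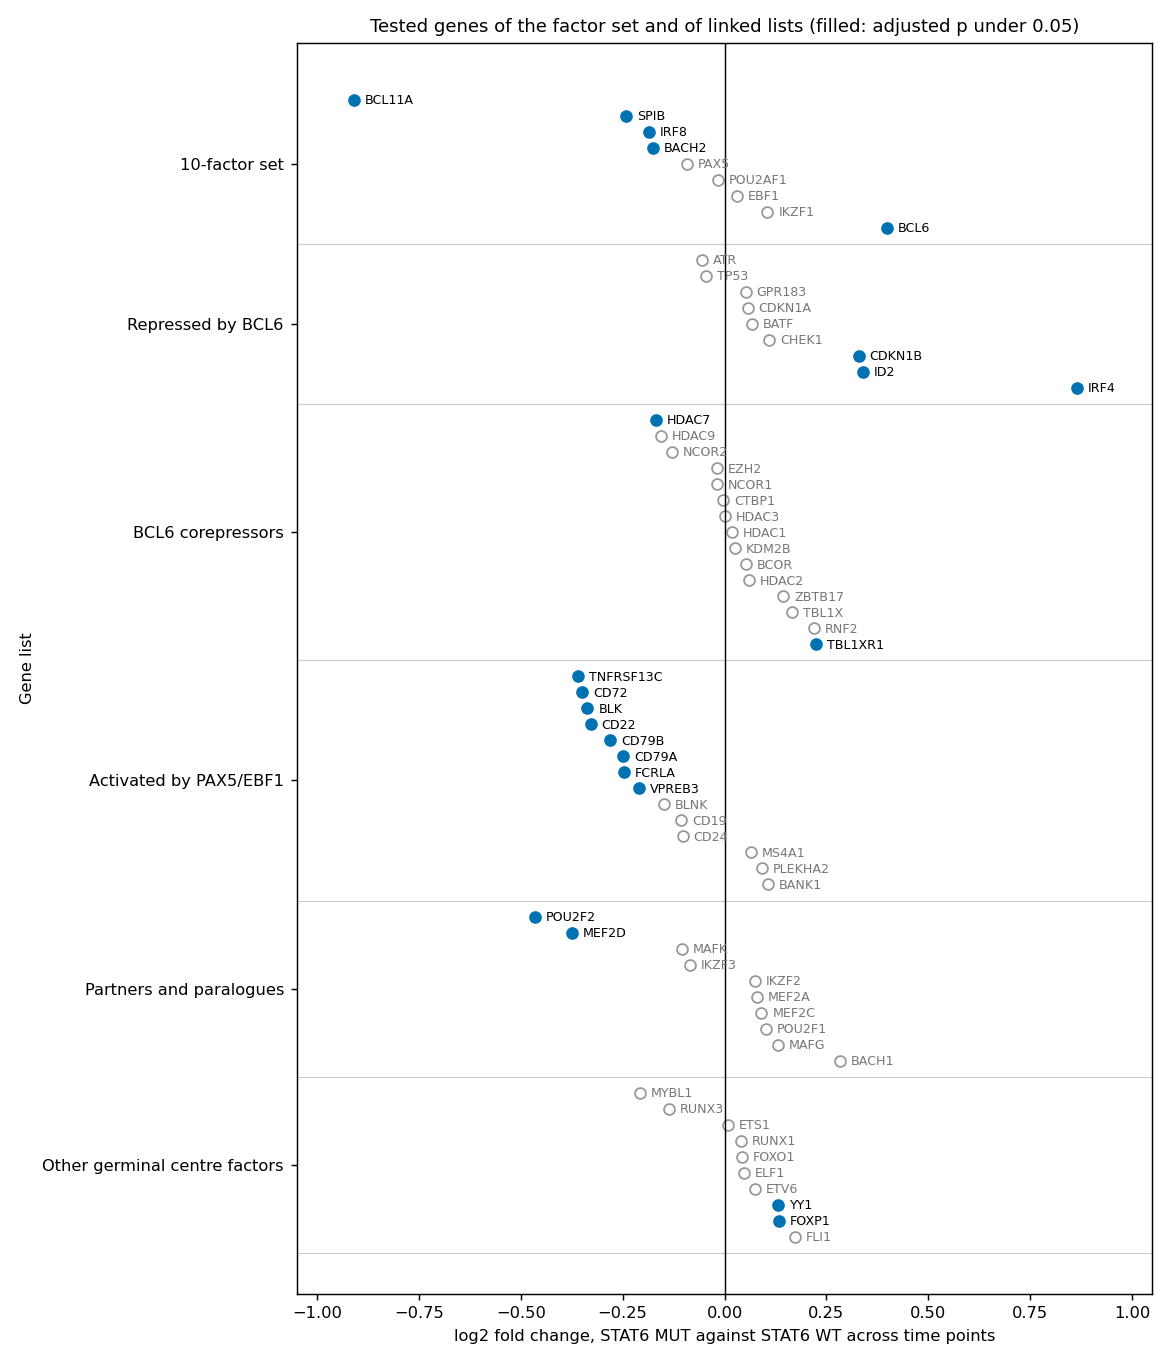
Log2 fold change of STAT6 MUT against STAT6 WT across time points (x axis) for the tested genes of the factor set and of 5 linked lists (y axis, ordered by value within a list), with filled points for an adjusted p under 0.05. Filled points are 8 of 14, all below 0, among genes activated by PAX5 or EBF1, and 3 of 9, all above 0, among genes repressed by BCL6. Of all genes tested 6.62% were called lower and 6.74% higher.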

How the data were processed

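Prime-seq, a barcoded 3′ RNA sequencing method, was applied to 54 wells. Reads went through the Drop-seq pipeline, and the authors deposited raw UMI counts by gene and well, neither normalized nor pooled. The submitters' processing notes name hg38. The sources used here do not name the aligner, the annotation, or how strand was handled. Groups came from the sample titles, and wells were tied to them by name. All 31835 identifiers were kept (30959 matched a symbol), 0 lines lacked an identifier, and 0 columns were left unused. The members and gene lists were chosen with earlier results of these data known.

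Counts were tested with edgeR 4.0.16 (R 4.3.3), using glmQLFit and glmQLFTest after TMM scaling and filterByExpr, and p-values were adjusted by Benjamini-Hochberg over all genes in a fit. The model across time points held time point and genotype, single times were fitted alone, and lines and interactions had their own models. SE is the absolute log2 fold change over the square root of F, and log2 CPM used a prior count of 2. Named genes were all 10 factors, up to 3 called genes per direction of each list by fold change, and the 3 genes nearest in group means to the 3 factors with the largest SD. Alternatives were DESeq2 1.42.0, limma-voom (limma 3.58.1), other scalings and filters, plate row, summed counts, a replicate block, and leaving out shallow libraries, replicates, or lines. Plots used Python 3.11.15 and matplotlib 3.10.9. Promoters are from RefSeq (GRCh38.p14) and gene spans from GENCODE on the same build.

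Depth was 161518 to 2978715 UMIs per library. In a simulation of the genotype comparison across time points (7846 genes), 42 of 67 changes of 0.25, 67 of 67 of 0.5, and 66 of 66 of 1 (absolute log2 fold change) were recovered, with 8 unchanged genes called. At 2 h alone 6 of 67, 42 of 67, and 63 of 64 were recovered. For the interaction of genotype and time 8 of 67, 28 of 67, and 62 of 66 were recovered. Changes of 0.25 were thus mostly missed in these 2 comparisons. The simulated libraries were drawn independently, with no differences between lines or times beyond the added changes. These counts therefore do not cover effects shared by the libraries of a line. No pair of replicates (135 pairs) agreed within sampling noise, with a chi-square per degree of freedom of 1.07 to 3.98.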

Additional observations from a re-analysis of the deposited data

Results flagged for a closer look

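Among 4 results that differed between conditions, the genotype difference changed over time for BACH2 (edgeR interaction, adjusted p = 0.00217) and SPIB (0.00396), and the mutant lines differed from each other in BCL6 (edgeR joint test, adjusted p = 0.000175) and BCL11A (2.56e-09).

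In 3 of 54 groups of 9 libraries, 1 library stood apart by Dixon's ratio of its gap to the group's range, which chance gives in about 1 group in 20. BCL6 in STAT6 WT at 8 h had a highest library, replicate 2, at 444 CPM against 346 CPM for the next (ratio 0.689). IRF8 in STAT6 MUT at 4 h had a lowest library, D419G replicate 3, at 135 CPM against 205 CPM (ratio 0.768), resting on 24 UMIs. POU2AF1 in STAT6 MUT at 8 h had a highest library, N421K replicate 2, at 775 CPM against 640 CPM (ratio 0.55). In this order, the 3 libraries held 357395, 175878, and 191586 UMIs in all, against a median of 885258.5 over all libraries. Each STAT6 MUT group pools the 3 mutant lines.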

How the results depend on the processing

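Across time points, BCL6, BCL11A, and SPIB were called under all 22 alternatives run, with log2 fold changes of 0.29 to 0.45, -1.16 to -0.49, and -0.26 to -0.22, IRF8 under 21 (-0.21 to -0.14), and BACH2 under 20 (-0.28 to -0.14). The members called numbered 4 to 6 of 9. Over all comparisons, 213 of 242 counts of members stayed within 1.5 times the main count. Of the members' fold changes, 1179 kept their direction and their side of the threshold, 87 lost a call, 17 gained one, and 26 changed sign.

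Same-numbered libraries did not deviate together (3 of 27 pairs with a correlation over 0.1, median -0.0034), so the replicate number was not taken as a pairing. Replicate numbers above 3 exist in STAT6 WT only. With the block, libraries of those numbers no longer inform a difference between mutant and STAT6 WT cells. That difference then rests on fewer STAT6 WT libraries, and the share of lost calls that this accounts for was not tested. With the replicate block fewer genes of any kind were called: 212 of 10636 tested at 2 h (743 of 8651 without it), 78 of 10413 at 4 h (342 of 8605), 31 of 11016 at 8 h (127 of 8801), 638 of 10277 across time points (1237 of 9261), and 151 of 10277 for D419N (267 of 9706). The members called were then 2 at 2 h (BCL11A and SPIB), 1 at 4 h (BCL6), 1 at 8 h (BACH2), 4 across time points, and 1 for D419N (BACH2). The calls lost at 2 h were BCL6 (0.25, adjusted p = 0.143) and PAX5 (-0.10, 0.651), at 4 h BCL11A (-0.90, 0.146), BACH2 (-0.42, 0.0648), and SPIB (-0.37, 0.162), at 8 h BCL6 (0.18, 0.705) and BCL11A (-0.62, 0.446), and across time points IRF8 (-0.14, 0.101). By line they were PAX5 in D419G (-0.13, adjusted p = 0.303), BCL6 (0.21, 0.0685), BCL11A (-0.52, 0.0532), and SPIB (-0.27, 0.156) in D419N, and IRF8 (-0.12, 0.25) and SPIB (-0.25, 0.0664) in N421K, where BACH2 gained one (-0.25, 0.0275). Without the N421K line 1 of the members was called at 4 h (BCL6), and 93 of 8817 genes in all.

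Leaving out single replicates gave members called from 2 to 4 at 4 h, 1 to 3 at 8 h, 2 to 3 for D419G, 1 to 3 for D419N, and 2 to 2 for N421K against STAT6 WT, 0 to 1 for D419G against D419N, 1 to 2 for N421K against D419G, 1 to 2 for the interaction, 2 to 5 for STAT6 WT from 4 to 8 h, and 3 to 4 and 2 to 4 for STAT6 MUT from 2 to 4 and 4 to 8 h.

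The 26 changes of sign were in values near 0 that were not called. At 8 h PAX5 was at 0.0027 with total counts alone, 0.0090 without the 8 shallow libraries, and 0.011 without the D419G line, POU2AF1 at -0.0047 with no filter and -0.022 without shallow libraries, and IKZF1 at -0.0075 with no filter and -0.016 without the D419N line. At 2 h POU2AF1 was at -0.012 without the D419N line, and at 4 h PAX5 at 0.0015 without the D419G line. With the replicate block POU2AF1 was at -0.0063 (2 h), PAX5 at 0.027 (4 h) and 0.028 (D419N), and IKZF1 at -0.025 (8 h). Leaving out single replicates gave, across time points, POU2AF1 -0.053 to 0.025 and EBF1 -0.013 to 0.051, at 2 h POU2AF1 -0.033 to 0.081, at 4 h EBF1 -0.032 to 0.16, at 8 h PAX5 -0.041 to 0.040, POU2AF1 -0.031 to 0.053, and IKZF1 -0.023 to 0.042, for D419G IKZF1 -0.028 to 0.075, for D419N PAX5 -0.057 to 0.0014 and EBF1 -0.16 to 0.018, and for N421K POU2AF1 -0.094 to 0.020. The cause of these moves was not tested, and 4 to 143 UMIs per library limit BCL11A.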
